A study of Homo sapiens with 8 samples.

Results

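The genes that encode the subunits of the transcription factor NF-kB and the proteins that inhibit it were followed in the human glioblastoma line U87 after silencing of RND3. The members were 10 genes chosen by name, of which NFKB1, NFKB2, REL, RELA and RELB encode subunits, and NFKBIA, NFKBIB, NFKBIE, NFKBIZ and TNFAIP3 encode inhibitors or regulators. Array probes were assigned to them through transcript accessions. In this way 9 of the 10 genes were represented, by 10 probes of 42405 in all, since RELA had a pair of probes. NFKB2 was not analysed here, because no probe carried an accession listed for it in the gene table used, which does not show that the array lacks a probe for it. The 9 genes stand against 19483 gene symbols measured, and the probes of all 9 passed the filter on dim signals. Cells were transfected with non-silencing siRNA (siControl) or siRNA against RND3 (siRND3), and each sample was hybridised to 1 array in 1 colour. There were 3 siControl and 3 siRND3 arrays at 24 h after transfection, and 1 siControl and 1 siRND3 array at 48 h. All cells were of the same line, and the knockdown was transient. The methods describe a pair of RND3 siRNAs, but not which of them each array stands for. Whether the replicates were independent transfections is not labelled, so p-values measure the spread between these samples only, which may be technical.

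NF-kB acts as dimers of subunits that share a Rel homology domain. In resting cells most dimers are held in the cytoplasm by inhibitors of the IkB family, and signals from cytokine and Toll-like receptors lead the IKK kinase complex to mark these inhibitors for degradation, which frees the dimers to enter the nucleus. Several genes of the system are themselves classical NF-kB targets, among them NFKBIA, NFKBIE, TNFAIP3, RELB, REL and NFKB1, which gives the pathway its feedback loops. In glioblastoma, NF-kB activity is known for its link with the mesenchymal state and with the production of inflammatory cytokines.

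Stretches upstream of the start sites of 5 members are shown because they contain the short sequence to which NF-kB dimers bind. Each is the run of 120 bases before the annotated start site, 5′ to 3′ on the gene's strand, from RefSeq on build GRCh38.p14. Capitals mark matches to the kappaB consensus, of 10 bases, searched on both strands. In REL and NFKBIB the capitals cover a pair of matches that overlap by all but 1 base, and in TNFAIP3 they mark a pair of separate matches.
NFKB1 (chr4:102501239-102501358, plus strand): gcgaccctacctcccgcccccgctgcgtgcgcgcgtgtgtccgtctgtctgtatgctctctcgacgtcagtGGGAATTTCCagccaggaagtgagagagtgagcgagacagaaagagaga
REL (chr2:60881454-60881573, plus strand): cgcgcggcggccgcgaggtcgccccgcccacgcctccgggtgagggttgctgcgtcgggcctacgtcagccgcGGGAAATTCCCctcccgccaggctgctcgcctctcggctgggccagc
NFKBIA (chr14:35404750-35404869, minus strand): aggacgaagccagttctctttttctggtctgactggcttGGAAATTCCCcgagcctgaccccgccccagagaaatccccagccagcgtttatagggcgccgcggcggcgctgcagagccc
NFKBIB (chr19:38899849-38899968, plus strand): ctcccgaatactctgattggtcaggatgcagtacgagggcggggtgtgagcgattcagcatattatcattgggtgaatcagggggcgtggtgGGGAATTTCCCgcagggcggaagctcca
TNFAIP3 (chr6:137867139-137867258, plus strand): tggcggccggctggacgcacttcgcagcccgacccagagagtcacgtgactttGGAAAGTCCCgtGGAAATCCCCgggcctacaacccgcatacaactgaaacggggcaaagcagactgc

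The match in NFKBIA began 81 bases before the start site, that in NFKB1 49 bases before it, and those in TNFAIP3 67 and 55 bases before it. Windows from 250 bases before to 50 bases after a start site were listed for 8 of the 10 members, all but RELB and NFKBIE, and 7 of these held a match in at least 1 window, RELA being the exception. Over all genes with such windows, 13.3% of 27305 held a match. A match describes the letters only, and binding was not measured here.

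The arrays were comparable in quality. The share of probes well above background was 68.3% to 70.7% per array, and at 24 h the correlation across probes between 2 arrays of a group was 0.991 to 0.995. All arrays came from 1 slide and 1 scan, with siRND3 in row 1 and siControl in row 2, so the effects of treatment and of slide row cannot be told apart. RND3 itself had log2 signals of 11.88, 11.91 and 11.90 in siControl cells and 10.13, 10.18 and 10.41 in siRND3 cells at 24 h, a fall of 1.66 (SE 0.093, limma adjusted p = 0.000339). At 48 h RND3 was at 11.48 in siControl and 9.83 in siRND3 cells. Of 7 markers of glial and mesenchymal glioma cells, VIM, CD44, NES and EGFR were well above background on all 8 arrays, S100B on 1, and GFAP and SOX2 on none, GFAP being the defining marker of astrocytes. The summed linear signal of the glial and mesenchymal markers ranged from 222140 to 235548 in siControl and from 193273 to 215839 in siRND3 cells at 24 h. VIM had the highest signals of the list and weighs most in this sum. It differed by -0.07 and was not called (limma adjusted p = 0.624). CD44 fell by 0.56 (adjusted p = 0.00855), and NES rose by 0.41 at probe A_23_P103672 (adjusted p = 0.0448) but differed by 0.23 at its other probe (adjusted p = 0.196). Probes for endothelial and immune markers showed a signal in these cultures. The summed linear signal of the immune marker probes (4 of 5 genes with a probe) ranged from 194 to 236 (siControl) and from 242 to 254 (siRND3) at 24 h. That of the 3 endothelial markers ranged from 307 to 344 and from 302 to 318, and that of the 3 epithelial markers, of which CDH1 was well above background on no array, from 248 to 274 and from 254 to 330. Of the endothelial markers PECAM1 fell by 0.99 at probe A_23_P252471 (adjusted p = 0.0212). At 48 h this probe was at 6.69 in siControl and 3.25 in siRND3 cells, the latter not well above background. The other PECAM1 probe tested, A_33_P3405213, differed by -0.58 at 24 h and was not called (adjusted p = 0.0653). It was at 6.14 in siControl and 5.11 in siRND3 cells at 48 h. The part of these markers in the results that follow was not tested.

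RELB and NFKBIA fell in siRND3 cells at 24 h, and these were the 2 of 9 member genes that passed an adjusted p of 0.05 in limma. No member was called higher. RELB, the subunit of the non-canonical pathway, was at 63.8% of the siControl level, and NFKBIA, which encodes the main cytoplasmic inhibitor IkB-alpha, was at 80.4%. REL, the subunit best known from lymphoid cells, had the largest difference of all members but varied between the siRND3 arrays and narrowly missed the threshold. NFKB1 showed almost no difference. Across all 14805 genes tested, 9.29% were called lower and 7.35% higher at 24 h. At an unadjusted p under 0.05, 5 member genes differed, with RELA and NFKBIB added to RELB, NFKBIA and REL, against 36.4% of all genes with at least 1 probe under that level.

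Values below are log2 signals after quantile normalisation, in which a difference of 1 is a doubling, and signals of different probes are not set against each other. Among the subunits, RELB (probe A_23_P55706) had signals of 10.88, 10.89 and 10.89 in siControl cells at 24 h and of 10.32, 10.27 and 10.13 in siRND3 cells. The siControl arrays were nearly identical, and every siRND3 array lay well below them. The means were 10.89 ± 0.0066 (SD, n = 3) and 10.24 ± 0.095 (SD, n = 3), a fall of 0.65 on the log2 scale (SE 0.076, 95% interval from -0.83 to -0.47, limma adjusted p = 0.00416). RELB passed the threshold in all 15 alternative analyses, with adjusted p-values from 2.01e-04 to 0.0301.

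REL (A_23_P56938) had signals of 6.23, 6.40 and 6.25 in siControl cells and of 5.18, 5.63 and 5.91 in siRND3 cells. All siRND3 arrays were below all siControl arrays, but they spread over a range of their own that was wider than that of the controls, with SDs of 0.37 and 0.090 (n = 3 each). The difference was -0.72 (SE 0.18, 95% interval from -1.16 to -0.28, limma adjusted p = 0.0524), or 60.7% of the siControl level. Whether REL was called depended on the processing. It passed in 7 of 15 alternatives, among them significance analysis of microarrays (SAM), the test stated in the methods, and the analysis without siRND3 replicate 3, in which the difference was -0.89 (adjusted p = 0.0297). With normexp background correction the difference was -0.37 (adjusted p = 0.0178).

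RELA encodes the main activating partner of the canonical dimer. Its probe A_23_P104689 had signals of 9.96, 9.96 and 10.09 in siControl cells and of 9.69, 9.90 and 9.75 in siRND3 cells, without overlap. The difference of -0.22 (SE 0.086) did not pass the threshold (adjusted p = 0.151). The other RELA probe, A_33_P3209433, had signals of 9.37, 9.18 and 9.32 against 9.02, 9.39 and 9.08. Here siRND3 replicate 2 lay above all 3 controls, so the groups overlapped, and the difference was -0.13 (SE 0.12, adjusted p = 0.534). The probes thus pointed the same way, and neither was called.

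NFKB1 (A_23_P30024), which encodes the precursor of the DNA-binding partner of RELA, had signals of 9.37, 9.37 and 9.40 in siControl and of 9.28, 9.41 and 9.39 in siRND3 cells. The groups overlapped, and the difference was -0.02 with a 95% interval from -0.19 to 0.15 (adjusted p = 0.90).

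**Figure D1:**
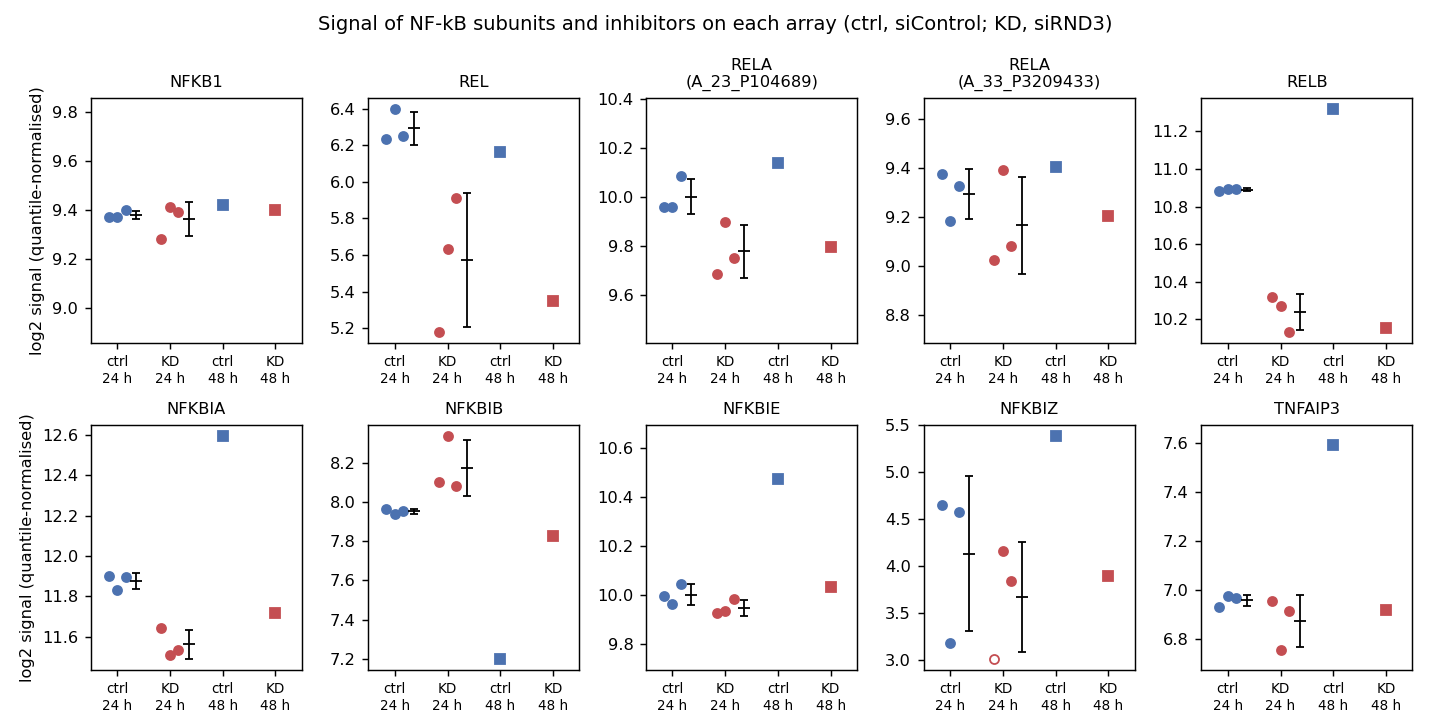
Log2 signal (vertical axis, quantile-normalised, scales differ between panels) of each member probe on each array. Circles are 24 h arrays and squares the single 48 h arrays, in blue for siControl (ctrl) and red for siRND3 (KD), an open symbol marks a signal not well above background, and black bars give the mean and SD of 3 arrays at 24 h. RELB, NFKBIA, REL and the RELA probe A_23_P104689 are lower on all siRND3 arrays at 24 h. The siControl array at 48 h stands above the 24 h controls for every probe but those of REL and NFKBIB.

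Among the inhibitors, NFKBIA (A_23_P106002) had signals of 11.90, 11.83 and 11.90 in siControl cells at 24 h and of 11.64, 11.51 and 11.54 in siRND3 cells. The groups did not overlap. The means were 11.88 ± 0.041 (SD, n = 3) and 11.56 ± 0.070 (SD, n = 3), a fall of 0.31 (SE 0.073, 95% interval from -0.49 to -0.14, limma adjusted p = 0.0409). This call was close to the threshold and was lost in 9 of 15 alternatives, with adjusted p-values from 0.0123 to 0.148 over the alternatives that gave one. It was lost under SAM, without siControl replicate 1 (0.134), 2 (0.0968) or 3 (0.148), and without siRND3 replicate 2 (0.0937) or 3 (0.0899). The difference itself kept its sign and lay between -0.35 and -0.28 throughout.

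NFKBIB (A_33_P3343545), which encodes IkB-beta, was the one member with higher signals in siRND3 cells, at 8.10, 8.34 and 8.08 against 7.96, 7.94 and 7.96. The groups did not overlap, but the difference of 0.22 (SE 0.090, 95% interval from 0.0048 to 0.44) did not pass after adjustment (adjusted p = 0.170). NFKBIE (A_23_P30655), which encodes IkB-epsilon, had signals of 10, 9.96 and 10.04 against 9.92, 9.93 and 9.98. These overlapped, with a difference of -0.05 (SE 0.068, adjusted p = 0.649).

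TNFAIP3 (A_24_P157926), a ubiquitin-editing enzyme that shuts off signalling to IKK, had signals of 6.93, 6.97 and 6.97 in siControl and of 6.95, 6.76 and 6.91 in siRND3 cells. One siRND3 array fell inside the range of the controls, and the difference was -0.08 (SE 0.080, adjusted p = 0.543). NFKBIZ (A_23_P212089), a nuclear IkB-like protein that regulates secondary response genes, had signals of 4.65, 3.18 and 4.57 against 3.02, 4.15 and 3.84, which spread widely within both groups. It was not well above background on siRND3 replicate 1, and the difference of -0.46 had an SE of 0.46 (95% interval from -1.58 to 0.65, adjusted p = 0.564).

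In all, the siControl and siRND3 arrays did not overlap at 24 h for 5 of the 10 member probes, 4 of them lower (REL, 1 RELA probe, RELB and NFKBIA) and 1 higher (NFKBIB). Over 28734 probes with all 6 values, 34.7% did not overlap in either direction, 14% lower and 20.7% higher. For each of the 5 probes the two-sided exact permutation test over the 6 arrays gave p = 0.1, the smallest possible with 3 arrays per group.

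At 48 h, where each condition had 1 array and the difference has no replicate check, 8 of the 9 member genes (9 of 10 probes) were lower in siRND3 cells and NFKBIB was higher. Of all 28762 probes tested, 44.9% were lower at 48 h. RELB was at 11.32 in siControl and 10.15 in siRND3 cells, a difference of -1.17, or 44.6% of the control. NFKBIA was at 12.59 and 11.72, a difference of -0.88 (54.5%), and TNFAIP3 was at 7.59 and 6.92, a difference of -0.68 (62.6%). These 3 genes stood further apart between treatments than at 24 h. NFKBIE was at 10.47 and 10.03 (-0.44), REL at 6.16 and 5.35 (-0.81), and NFKBIZ at 5.38 and 3.89 (-1.49). NFKBIB was at 7.20 and 7.83 (0.62). RELA was at 10.14 and 9.79 (-0.35) by one probe and at 9.40 and 9.20 (-0.20) by the other, and NFKB1 was at 9.42 and 9.40 (-0.02). For all 10 probes of the 9 genes the difference at 48 h had the same sign as at 24 h and was further from 0, although for NFKB1 the values were nearly equal. Of all 28762 probes tested, called or not, 52.3% were further from 0 in the same direction at 48 h.

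**Figure D2:**
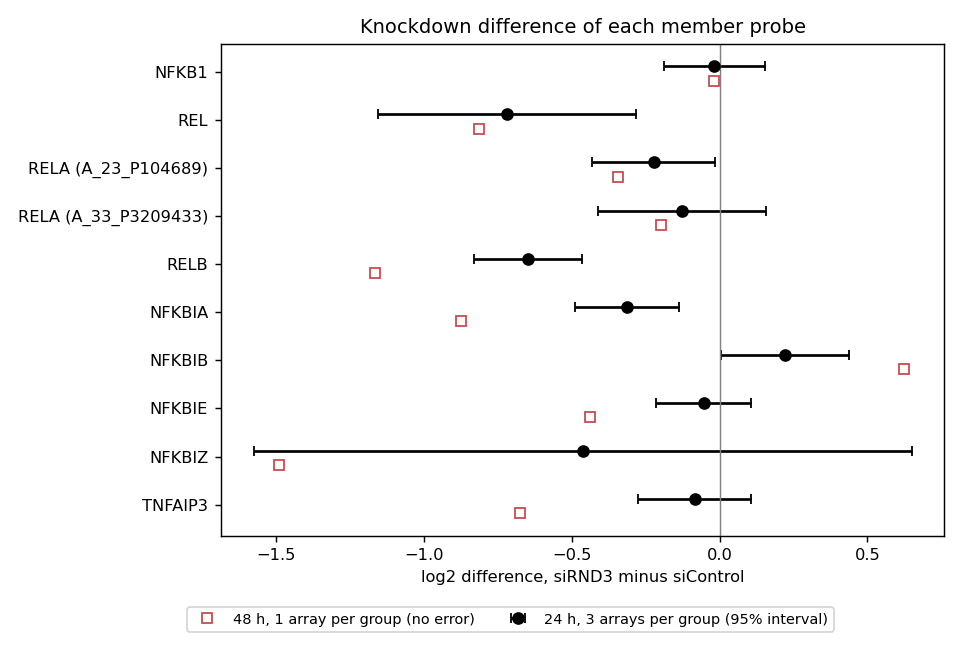
Difference between siRND3 and siControl cells (horizontal axis, log2) for each member probe. Black circles with bars give the 24 h difference and its 95% interval from 3 arrays per group, and open red squares give the difference between the single arrays at 48 h, which has no error. At 24 h the intervals of REL, RELB, NFKBIA and 1 RELA probe lie below 0 and that of NFKBIB just above it, before adjustment for multiple testing.

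Whether the effect of knockdown differed between the times was tested as an interaction in a limma model of all 8 arrays, in which the single arrays were assumed to vary like the replicates at 24 h. No member passed after adjustment, against 4.33% of all genes. At an unadjusted p under 0.05 there were 4 members, against 24.7% of all genes. Subtracting the 24 h effect from the 48 h effect gave -0.56 for NFKBIA (SE 0.15, adjusted p = 0.105), -0.59 for TNFAIP3 (SE 0.16, adjusted p = 0.114), -0.52 for RELB (SE 0.15, adjusted p = 0.141) and -0.38 for NFKBIE (SE 0.14, adjusted p = 0.198). NFKBIA passed with normexp background correction (adjusted p = 0.0304) and when all probes of a gene were averaged (0.0491).

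The change from 24 h to 48 h was also fitted within each treatment. Since no member passed the interaction, a widening of the difference with time is not established. In siControl cells NFKBIA rose from 24 h to 48 h by 0.72 (SE 0.10, limma adjusted p = 0.0235) and TNFAIP3 rose by 0.64 (SE 0.11, adjusted p = 0.0378), while NFKBIB fell by 0.75 (SE 0.13, adjusted p = 0.0341). These were 3 of 9 member genes, against 5.25% of all genes called in either direction, 1.22% higher and 4.03% lower. RELB (0.43, adjusted p = 0.0892) and NFKBIE (0.47, adjusted p = 0.0530) did not pass, although the 48 h array lay above all 3 of their 24 h controls. NFKBIZ had the largest difference but a wide error (1.25, SE 0.66, adjusted p = 0.324). NFKB1 (0.04), the RELA probes (0.14 and 0.11) and REL (-0.13) were not called either. The siControl array at 48 h was above the 24 h range of siControl for 8 of the 10 probes and below it for REL and NFKBIB, against 39.6% of all probes above and 33.8% below. All of these values rest on that 1 array, which also sat in a slide column of its own with the siRND3 array at 48 h, so time and column cannot be told apart. With 1 fewer siControl array at 24 h none of the 3 calls held. Without siControl replicate 1, 2 or 3 the adjusted p was 0.0772, 0.0750 or 0.0831 for NFKBIA, 0.110, 0.0977 or 0.116 for TNFAIP3 and 0.0982, 0.0911 or 0.107 for NFKBIB. TNFAIP3 also missed without siRND3 replicate 3 (0.0572), and NFKBIB missed under scaling to the 75th percentile (0.0561). With normexp the rise of TNFAIP3 was 0.41 (adjusted p = 0.0276).

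In siRND3 cells no member passed between 24 h and 48 h, against 13% of all genes, and 1 did at an unadjusted p under 0.05, namely NFKBIB (-0.35, SE 0.13, adjusted p = 0.145), against 33.8% of all genes at that unadjusted level. The differences were 0.15 for NFKBIA (adjusted p = 0.395), 0.04 for TNFAIP3 (0.836), 0.09 for NFKBIE (0.607) and -0.09 for RELB (0.655). The siRND3 array at 48 h lay inside the 24 h range of siRND3 for NFKB1, REL, both RELA probes, RELB, NFKBIZ and TNFAIP3, above it for NFKBIA and NFKBIE, and below it for NFKBIB, against 37% of all probes above and 29.9% below. The difference between the treatments in these time courses is the interaction given above, which no member passed.

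**Figure D3:**
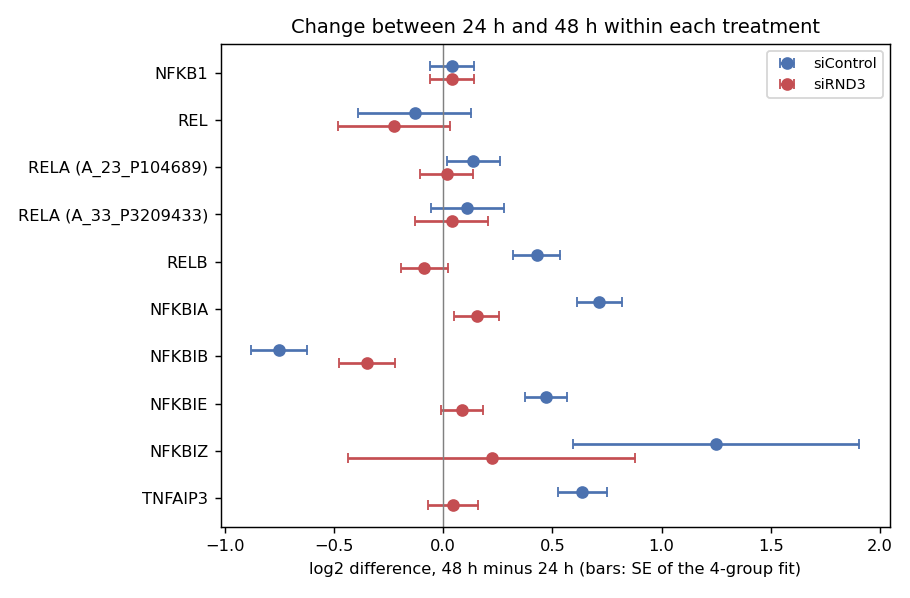
Change from 24 h to 48 h (horizontal axis, log2) within siControl (blue) and siRND3 (red) cells for each member probe, with bars of 1 SE from the model of 4 groups. NFKBIA, TNFAIP3, NFKBIE and RELB span 0.43 to 0.72 for siControl and -0.09 to 0.15 for siRND3, and NFKBIB lies below 0 in both. NFKBIZ has the largest siControl value, 1.25, with an SE of 0.66, and NFKB1, RELA and REL lie between -0.23 and 0.14 in both treatments.

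The genes whose signal followed that of RELB most closely over the 8 arrays, out of 14139 genes compared, were TGFB2 (Pearson r = 0.996), a secreted growth factor, CDC42EP2 (0.994), SLC68A1 (0.992), CASTOR3P (0.992) and NNMT (0.989), a nicotinamide methyltransferase. In all, 508 genes had r above 0.9 with RELB. For NFKBIA they were SLC1A3 (0.993), a glutamate transporter of astrocytes, TENT5C (0.991), TNFRSF10D (0.990), a decoy receptor for the death ligand TRAIL, ZSWIM8 (0.988) and CCL2 (0.986), a chemokine, and 143 genes had r above 0.9. These correlations describe 8 arrays that share treatment and time, so any gene with a similar response to both ranks high.

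Upstream of the members, the IKK complex showed no called change. CHUK, its alpha kinase, had a difference of -0.15 at 24 h (adjusted p = 0.309), IKBKB, its beta kinase, of -0.02 (0.919), and IKBKG, its regulatory subunit NEMO, of 0.31 (0.0732). IKBKG had signals of 10.58, 10.61 and 10.67 in siControl and 10.81, 11.07 and 10.92 in siRND3 cells, and it passed in 3 of 15 alternatives. Of 11 kinases and their partners tested, 2 were called lower and none higher, against 9.29% of all genes called lower and 7.35% higher. MAP3K8, a kinase that acts on ERK and NF-kB signalling, fell by 0.91 (SE 0.12, adjusted p = 0.00668), and TAB2, an adaptor of the kinase TAK1, fell by 0.85 (SE 0.079, adjusted p = 0.00164).

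Receptors and adaptors moved in both directions, with 4 of 22 tested genes lower and 3 higher, against 9.29% and 7.35% of all genes. The lipopolysaccharide receptor TLR4 fell by 1.22 at probe A_32_P66881 (SE 0.071, adjusted p = 0.000366), while its other probe differed by -0.61 and was not called (adjusted p = 0.0546). The Toll-like receptor adaptors TICAM1 and MYD88 fell by 1.00 (SE 0.088, adjusted p = 0.00133) and 0.81 (SE 0.079, adjusted p = 0.00212). Those called higher were TRAF2 at probe A_33_P3803639 (0.51, adjusted p = 0.00920), TLR3 (0.48, adjusted p = 0.0189) and TRAF6 (0.44, adjusted p = 0.0233). The other TRAF2 probe differed by 0.35 and was not called (adjusted p = 0.296). The median difference of the receptors and adaptors was -0.03, against 0.04 over all genes. Among 16 ubiquitin editors 5 were lower and none higher, against the same shares of all genes. BIRC3, a ubiquitin ligase of TNF receptor complexes and itself an NF-kB target, fell by 2.78 (SE 0.17, adjusted p = 0.000394), from 6.75, 6.70 and 6.94 to 3.68, 4.04 and 4.32. BTRC, which recognises phosphorylated IkB, fell by 0.51 (SE 0.087, adjusted p = 0.0152) and UBE2N, the conjugating enzyme for chains that activate IKK, fell by 0.50 (SE 0.098, adjusted p = 0.0245). BTRC was no longer called without siControl replicate 1 (0.0535) or 3 (0.0690), and UBE2N without siControl replicate 1 (0.0894) or 3 (0.0967) or siRND3 replicate 1 (0.0505) or 2 (0.0525). The median of the ubiquitin editors was -0.03. The size of the fall in dimmer probes depended on the treatment of background, and with normexp the difference was -1.16 for BIRC3, -0.28 for UBE2N, -0.70 for TLR4 and -0.45 for MAP3K8, all still called.

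Of the other IkB-like proteins, 1 of 3 tested was called, against 7.35% of all genes called higher. It was NFKBIL1, which rose by 0.46 at probe A_33_P3283971 (SE 0.10, adjusted p = 0.0369). Its other probe differed by 0.06 (adjusted p = 0.782), and the call was lost in 9 of 15 alternatives, including each of the 6 in which 1 array was left out (adjusted p from 0.0626 to 0.101).

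Of the classical NF-kB targets outside the members, 16 of 24 tested genes were called lower in siRND3 cells at 24 h and none higher. Over all genes, 9.29% were called lower and 7.35% higher. This list and the other pathway lists were chosen with earlier results of these data known. Their counts therefore describe the lists and are not independent support. The median difference of the targets was -0.63. Among those called lower, CSF2 and IL1A were not well above background on siRND3 replicate 1, so their probes passed the filter through siControl only. Both are nevertheless part of the counts and medians of the targets, and their falls are no support for the list. PLAU, the urokinase gene, fell by 2.05 at probe A_33_P3306146 (SE 0.16, adjusted p = 0.000925) and by 1.92 at its other probe. IL1B, a central inflammatory cytokine, fell by 1.58 (SE 0.095, adjusted p = 0.000394). CFLAR, an inhibitor of caspase activation by death receptors, fell by 1.41 at probe A_23_P209394 (SE 0.071, adjusted p = 0.000222), while its other probe differed by -0.11 (adjusted p = 0.531). At 48 h the median of the targets was -1.31, against 0.06 over all genes, and 22 of 24 were lower, against 6594 of all 14805 genes tested. The medians of the member subunits and inhibitors were -0.44 and -0.08 at 24 h and -0.58 and -0.68 at 48 h. Over all 76 pathway genes tested other than the members, 27 were called lower and 4 higher, against 9.29% and 7.35% of all genes, with a median of -0.15. With a filter on all 6 arrays at 24 h, 25 were called lower. The count called higher was 1 without siControl replicate 1, 2 or 3 and 2 without siRND3 replicate 1 or 3.

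**Figure D4:**
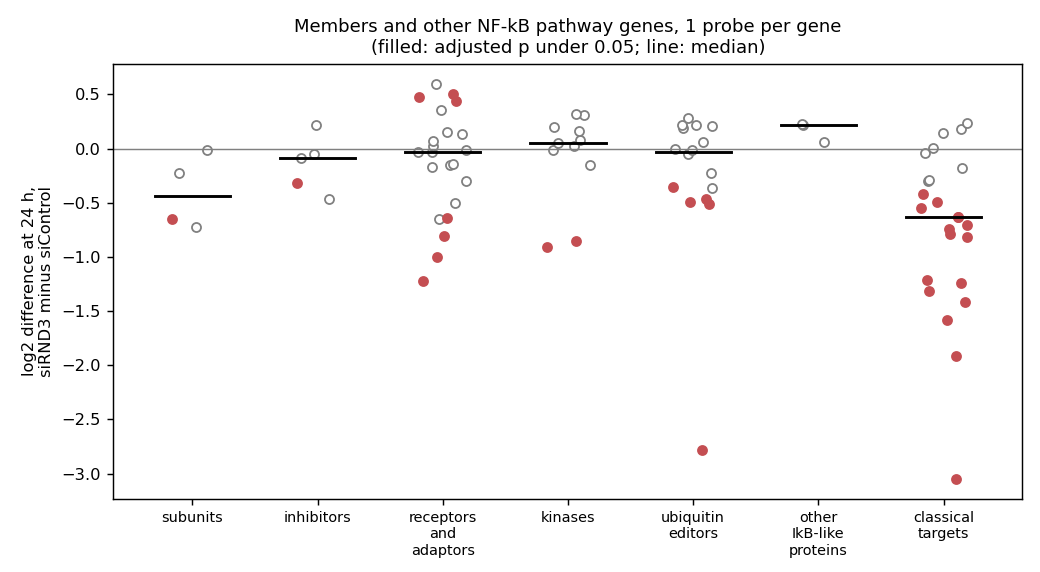
Difference between siRND3 and siControl cells at 24 h (vertical axis, log2) of members and of other NF-kB pathway genes by role, 1 probe per gene (the brightest), with the median of each list as a line. Filled points passed an adjusted p of 0.05 at the plotted probe, which for NFKBIL1 is the probe that did not, and 16 of 24 classical targets are filled, all below 0. Of the filled targets, CSF2 and IL1A passed the filter on dim signals through siControl only.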

How the data were processed

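Total RNA of U87 cells was measured on 8 one-colour Agilent arrays. Groups, times and replicate numbers were taken from the deposited labels. The authors processed the scans with Agilent Feature Extraction 10.7.3.1, and the deposited intensity used here is the background-corrected processed signal on a linear scale, not scaled between arrays. The authors' deposited log2 values, which had the rank order of the spot medians without background correction and were stated to be quantile-normalised, served as an alternative.

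Control spots (4259 of 62976) and outlier spots were left out, log2 signals were quantile-normalised over the 8 arrays, and spots of a probe were averaged. Probes were named by accession through the RefSeq table of GRCh38.p14 (59.95% of 42405 matched). The array annotation uses hg19, so no probe coordinates are given. Probes well above background (at least 50% of spots) on all 3 arrays of a group at 24 h were tested (28762 probes, 14805 genes). No spot was saturated. The number of arrays limits the precision.

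The 6 arrays at 24 h were compared with limma 3.58.1 in R 4.3.3, with no covariate; p-values were adjusted by Benjamini-Hochberg over every probe tested, at a threshold of 0.05. A gene was called when at least 1 probe passed and none passed in the other direction. Times were compared in a limma model of 4 groups, and list medians used the brightest probe of a gene. All 10 members were named. Other pathway genes named were, in each list, the 3 with the largest called change among those with such a signal on each of the 6 arrays at 24 h, plus CHUK, IKBKB, IKBKG and RND3, and the 5 genes most like RELB and NFKBIA. The receptors and adaptors called higher were named in addition. Members and lists were chosen with earlier results of these data known. The alternatives tried were 75th percentile scaling, normexp correction (offset 50) of the spot medians, the authors' log2 values, normalisation over 6 arrays, no filter or a filter on all 6 arrays, SAM at a false discovery rate of 5%, the replicate number as a block, the mean of a gene's probes, and each array at 24 h left out.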

Additional observations from a re-analysis of the deposited data

Results flagged for a closer look

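The knockdown effect of 5 named pathway genes differed between 48 h and 24 h in the interaction of the limma model of 4 groups, where the lone 48 h arrays were given the spread of the replicates at 24 h. Over all genes, 4.33% passed this interaction. Pathway genes outside the named ones, such as IL6, IER3 and CCL2, also passed it. Subtracting the 24 h effect from the 48 h effect gave -3.71 for BIRC3 (adjusted p = 0.0161), -2.66 for PLAU at probe A_33_P3306146 (adjusted p = 0.0238) and -2.66 for IL1B (adjusted p = 0.010). It gave -0.88 for TLR4 at probe A_32_P66881 (adjusted p = 0.0365) and -0.86 for TAB2 at probe A_23_P19702 (adjusted p = 0.0479). The other probes of TLR4 (-0.54, adjusted p = 0.436) and TAB2 (-0.81, adjusted p = 0.0720) did not pass. In siRND3 cells at 48 h the BIRC3 probe was not well above background, so the size of its difference at 48 h, and with it the value of -3.71, is uncertain. IL1B was at 12.29 in siControl and 8.05 in siRND3 cells at 48 h. Each value rests on 1 array per treatment at 48 h. Without siControl replicate 1, 2 or 3 the adjusted p was 0.0672, 0.0590 or 0.0541 for BIRC3 and 0.0706, 0.0590 or 0.0737 for PLAU, and without siControl replicate 1 it was 0.0608 for IL1B. TLR4 and TAB2 missed the threshold whichever of the 6 arrays at 24 h was left out, with adjusted p-values from 0.0613 to 0.0996 and from 0.0519 to 0.128. With normexp background correction the value of BIRC3 was -1.09 and that of TLR4 -0.49.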

How the results depend on the processing

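For the counts of genes called, 75 alternative values lay within 1.5 times the value reported and 21 did not. For single genes, 710 kept direction and side of the threshold, 59 lost the call, 19 gained it and 18 changed sign. The cause was not tested except where fewer arrays or more probes entered. The members called lower at 24 h numbered 2. They numbered 1 with no filter on dim probes and 1 with the replicate block, and between 1 and 2 with an array left out. They numbered 3 with normexp, with the authors' log2 values, with the filter on all 6 arrays and with the mean of a gene's probes. Under SAM the 2 members were RELB and REL, not NFKBIA. The members with an interaction, 0 as reported, became 1 with normexp and 1 with the mean of a gene's probes. The members called between times in siControl cells, 3 as reported, became 5 with normexp and 5 with the mean of probes, and ranged from 0 to 3 with an array left out. Other pathway genes called higher, 4 as reported, became 8 with normexp, 7 with the authors' log2 values and 0 with the replicate block, and ranged from 1 to 4 with an array left out, while those called lower ranged from 18 to 26. Over all probes, 3389 were called as reported, between 1387 (without siControl replicate 3) and 4243 (normexp) otherwise, and 1654 with the replicate block. Replicate numbers did not pair the samples, since deviations of same-numbered arrays from their group means correlated at 0.0018, -0.012 and 0.13 for numbers 1 to 3. At 24 h the number was also the slide column. With the block NFKBIA (adjusted p = 0.0998), BTRC (0.0652), UBE2N (0.0761) and NFKBIL1 (0.0665) lost the call.

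The 18 changes of sign were among these values. The 48 h effect less the 24 h effect of NFKB1 was 0.032 with normexp and 0.036 with the authors' values, and the change of NFKBIZ between times in siRND3 cells was -0.0024 with normexp. With 1 array left out, the 24 h difference ranged from -0.043 to 0.022 for NFKB1 and from -0.042 to 0.026 for IKBKB. The 48 h effect less the 24 h effect ranged from -0.042 to 0.023 for NFKB1, from -0.29 to 0.073 for REL and from -0.14 to 0.042 for RELA at A_33_P3209433. The change between times in siRND3 cells ranged from -0.030 to 0.075 and from -0.032 to 0.15 for the RELA probes A_23_P104689 and A_33_P3209433, from -0.11 to 0.46 for NFKBIZ, from -8.5e-04 to 0.064 for NFKB1 and from -0.015 to 0.085 for TNFAIP3. The number of arrays limits what could be called. NFKBIZ was not well above background on 1 array, and the sizes of other differences, such as those of REL and TNFAIP3, moved with the background correction.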
